A study of Mus musculus with 9 samples.

Results

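The genes described here encode 10 actin-binding proteins, most of them known from smooth muscle: the calponins Cnn1, Cnn2 and Cnn3, the transgelins Tagln, Tagln2 and Tagln3, smoothelin (Smtn), leiomodin 1 (Lmod1), synaptopodin 2 (Synpo2) and caldesmon (Cald1). They were measured in whole mouse corneas with single-colour expression arrays, and all 10 were found among 22180 genes by taking rows that the platform annotation gives exactly 1 symbol and, for each gene, the row with the highest mean over 9 arrays. Smtn and Tagln2 had 2 such rows and the others 1. There were 3 groups of 3 arrays. The rescued corneas carried the corn1 mutation of Dstn, the gene for the actin depolymerising factor destrin, together with genetic ablation of Srf from the epithelium of the cornea. The mutant corneas carried the Dstn corn1 mutation alone and the WT corneas neither. All mice, WT included, were given doxycycline by intraperitoneal injection between postnatal days 28 and 58 and were 58 days old. Their strain background was mixed and drew on FVB, Swiss Black, 129, C57BL6/J and A.BY. Each array held RNA from a pool of 10 corneas of 5 mice. Which promoter drove the epithelial ablation is not stated in the labels. A whole cornea holds stroma and endothelium beside the epithelium, so more cells of a type and more RNA per cell cannot be told apart.

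Serum response factor (SRF) is a transcription factor that binds CArG boxes near its target genes. Its cofactors of the myocardin-related (MRTF) family are held back by monomeric actin, and they activate SRF when actin assembles into filaments. Cnn1, Tagln and Cald1 are textbook targets of this pathway in smooth muscle, where their products lie along actin filaments and tune contraction. Cnn2, Cnn3 and Tagln2 are also expressed widely outside muscle, whereas Tagln3 is known mainly from neurons.

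Start-site sequences from RefSeq (mouse build GRCm38.p6) were found for 9 of the 10 genes, all but Tagln, and were searched for the CArG box in a window of 250 bases before to 50 bases after each start. The box is its own class on both strands, so a match counts once. Only Cnn2 held an exact CArG box, against 1.81% of 27025 genes in the same table. It began 56 bases before the start. Matches that depart from the box in 1 of its 10 letters, or are exact, stood in 3 of 9 genes (Cnn2, Lmod1, Cald1), against 23.8% of all genes. Among 35 other contractile SRF targets, 28 had a sequence and 9 of them held an exact box. The 250 bases before the start are printed for Cnn2, with the exact box in capitals, for Cald1 and Lmod1, with the matches at 1 departure in capitals, and for Cnn1, which was called in the mutant and had no match in the window. They lie at chr10:79988350-79988599, chr6:34598254-34598503, chr1:135324563-135324812 and chr9:22099003-22099252, all on the plus strand. Cald1 has a further start, at which no match stood.
Cnn2: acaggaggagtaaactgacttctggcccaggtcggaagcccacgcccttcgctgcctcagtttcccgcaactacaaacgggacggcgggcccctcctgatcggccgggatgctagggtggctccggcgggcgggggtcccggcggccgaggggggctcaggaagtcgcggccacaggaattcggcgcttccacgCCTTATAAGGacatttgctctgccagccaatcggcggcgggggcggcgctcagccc
Cald1: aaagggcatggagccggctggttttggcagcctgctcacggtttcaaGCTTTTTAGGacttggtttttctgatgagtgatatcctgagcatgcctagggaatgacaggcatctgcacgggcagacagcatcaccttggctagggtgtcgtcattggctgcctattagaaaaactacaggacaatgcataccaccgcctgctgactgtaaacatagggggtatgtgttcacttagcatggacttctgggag
Lmod1: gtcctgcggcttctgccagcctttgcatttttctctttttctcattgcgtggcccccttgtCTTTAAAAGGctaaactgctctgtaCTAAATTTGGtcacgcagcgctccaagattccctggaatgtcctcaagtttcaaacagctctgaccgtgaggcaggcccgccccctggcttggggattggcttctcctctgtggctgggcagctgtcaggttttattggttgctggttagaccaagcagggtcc
Cnn1: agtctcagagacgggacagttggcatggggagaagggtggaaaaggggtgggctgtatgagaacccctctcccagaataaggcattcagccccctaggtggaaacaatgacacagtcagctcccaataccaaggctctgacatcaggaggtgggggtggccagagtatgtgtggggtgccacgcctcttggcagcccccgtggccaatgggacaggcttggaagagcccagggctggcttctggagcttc

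Values are log2 intensities as the authors normalised them. They are relative, and levels of different genes are not set against each other. The overall median of the table was 6.77. A gene below it may not exceed background, and a fold against such a group is written as a lower bound. Medians of single arrays lay between 6.75 and 6.78. Across all rows, arrays of 1 group had Pearson correlations of at least 0.990, and mutant and WT arrays 0.971 to 0.974. Krt12, a keratin of corneal epithelium, was at 13.49 or above on all arrays and Kera, a keratocyte proteoglycan, at 12.14 or above. Dstn was near 5.6 in rescued and mutant pools and 12.57 in WT pools. Srf was at 9.01 ± 0.51 in rescued, 10.68 ± 0.12 in mutant and 9.13 ± 0.13 in WT corneas (SD, n = 3 each). Y-linked genes averaged 7.16 to 9.11 in rescued and 7.78 to 9.77 in mutant pools, and 5.34, 9.77 and 5.15 in WT pools, so that 2 of the 3 WT pools lay below all rescued and mutant pools and the sex makeup of the groups may differ. With this mean as a covariate, an alternative chosen after seeing the data, 8 of the 10 genes were called between mutant and WT, 8 between rescued and mutant and 5 between rescued and WT corneas.

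The first comparison, of mutant with WT corneas, asked how the actin binders stand when Dstn is mutated. Of the 10 genes, 8 were higher in mutant corneas and none was lower at an adjusted p under 0.05 (limma, Benjamini-Hochberg over all genes), against 31.6% of all genes called in either direction, 15.1% called higher and 16.5% called lower. At an unadjusted p under 0.05, 9 were higher and none was lower, against 18.9% of all genes higher. Of the 8, 6 were higher by at least 2-fold, as were 3.04% of all genes. The median log2 difference of the 10 genes was 1.33, against −0.02 for all genes. Cnn1, Tagln and Cald1 differed most, Cnn3 differed by less than 2-fold, and Lmod1 and Tagln3 did not pass the test. In 9 of the 10 genes all mutant pools lay above all WT pools, as they did in 21% of all genes.

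Cnn1 encodes basic calponin, which inhibits the actin-activated ATPase of myosin. The mutant pools had log2 intensities of 10.05, 9.17 and 8.80, against 6.21, 6.12 and 6.40 in the WT pools. The mutant pools spread over more than 1 log2 unit, with replicate 1 highest, and all lay far above WT. Cnn1 was at least 8.58-fold higher in the mutant (log2 difference 3.10, SE 0.27, adjusted p = 2.52e-05, limma).

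Cnn2, the calponin of many non-muscle cells, had 11.80, 11.92 and 11.86 in mutant pools, against 10.18, 10.22 and 9.97 in WT pools. The groups were tight and far apart, with a log2 difference of 1.74 (SE 0.14), or 3.34-fold (adjusted p = 1.43e-05, limma). Cnn3 encodes acidic calponin. It had 13.41, 13.42 and 13.38 in mutant pools, against 12.87, 12.81 and 12.92 in WT pools, a 1.45-fold difference without overlap (log2 difference 0.54, SE 0.07, adjusted p = 0.0003, limma). These Cnn3 values lie close to 14.3, the highest value in the table.

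Tagln encodes transgelin (SM22 alpha), which bundles actin filaments. The mutant pools had 10.97, 10.40 and 10.35, against 7.61, 7.66 and 7.47 in WT pools. Replicate 1 was again the highest mutant pool, and the mutant exceeded WT 7.97-fold (log2 difference 3.00, SE 0.18, adjusted p = 2.96e-06, limma). Tagln2, its broadly expressed paralog, had 11.39, 11.48 and 11.37 in mutant pools, against 9.89, 9.87 and 9.90 in WT pools. The spread within either group was under 0.1 log2 unit (SD 0.06 in mutant and 0.02 in WT, n = 3 each), and Tagln2 was 2.89-fold higher (adjusted p = 3.4e-06, limma). The dimmer row of Tagln2 gave a log2 difference of 1.18, against 1.53 for the row used. Tagln3 lay below 6.77 on all arrays, with 6.13, 6.45 and 6.39 in mutant and 6.38, 6.48 and 6.60 in WT pools, so it gets no fold; its groups overlapped (log2 difference −0.16, SE 0.11, adjusted p = 0.336, limma). Among 8 neuronal marker genes the mutant had 1 higher and 1 lower, against 15.1% and 16.5% of all genes, and Tubb3, Nefl and Nefm lay below 6.77 on all arrays.

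Cald1 encodes caldesmon, a calmodulin-binding protein that restrains actomyosin. It had 10.78, 10.79 and 10.74 in mutant pools, against 8.34, 8.28 and 8.26 in WT pools. These were narrow groups 2.47 log2 units apart (SE 0.11), or 5.56-fold (adjusted p = 6.03e-07, limma), the smallest adjusted p among the 10 genes. Smtn, whose product marks contractile smooth muscle, had 8.93, 8.76 and 8.51 in mutant pools and 7.69, 7.76 and 7.36 in WT pools, a 2.19-fold difference (adjusted p = 0.000302, limma). The dimmer row of Smtn, at 6.43 in mutant and 6.27 in WT corneas, had a log2 difference of 0.16. With both rows averaged, the mutant minus WT difference of Smtn was 0.64 (adjusted p = 0.000895, limma), below 2-fold, and the rescued minus mutant difference was −0.41 (adjusted p = 0.0258, limma).

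Synpo2, whose product links actin to the Z-disc in muscle, had 7.60, 7.49 and 7.57 in mutant pools and 6.70, 6.53 and 6.78 in WT pools. It was at least 1.84-fold higher (log2 difference 0.88, SE 0.08, adjusted p = 2.3e-05, limma). Lmod1, which encodes a filament-nucleating protein of smooth muscle, had 6.92, 7.03 and 6.99 in mutant pools and 6.60, 6.88 and 6.87 in WT pools. The mutant pools lay above WT, but the log2 difference of 0.20 (SE 0.08) did not pass the test (adjusted p = 0.107, limma; unadjusted p = 0.0413).

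**Figure D1:**
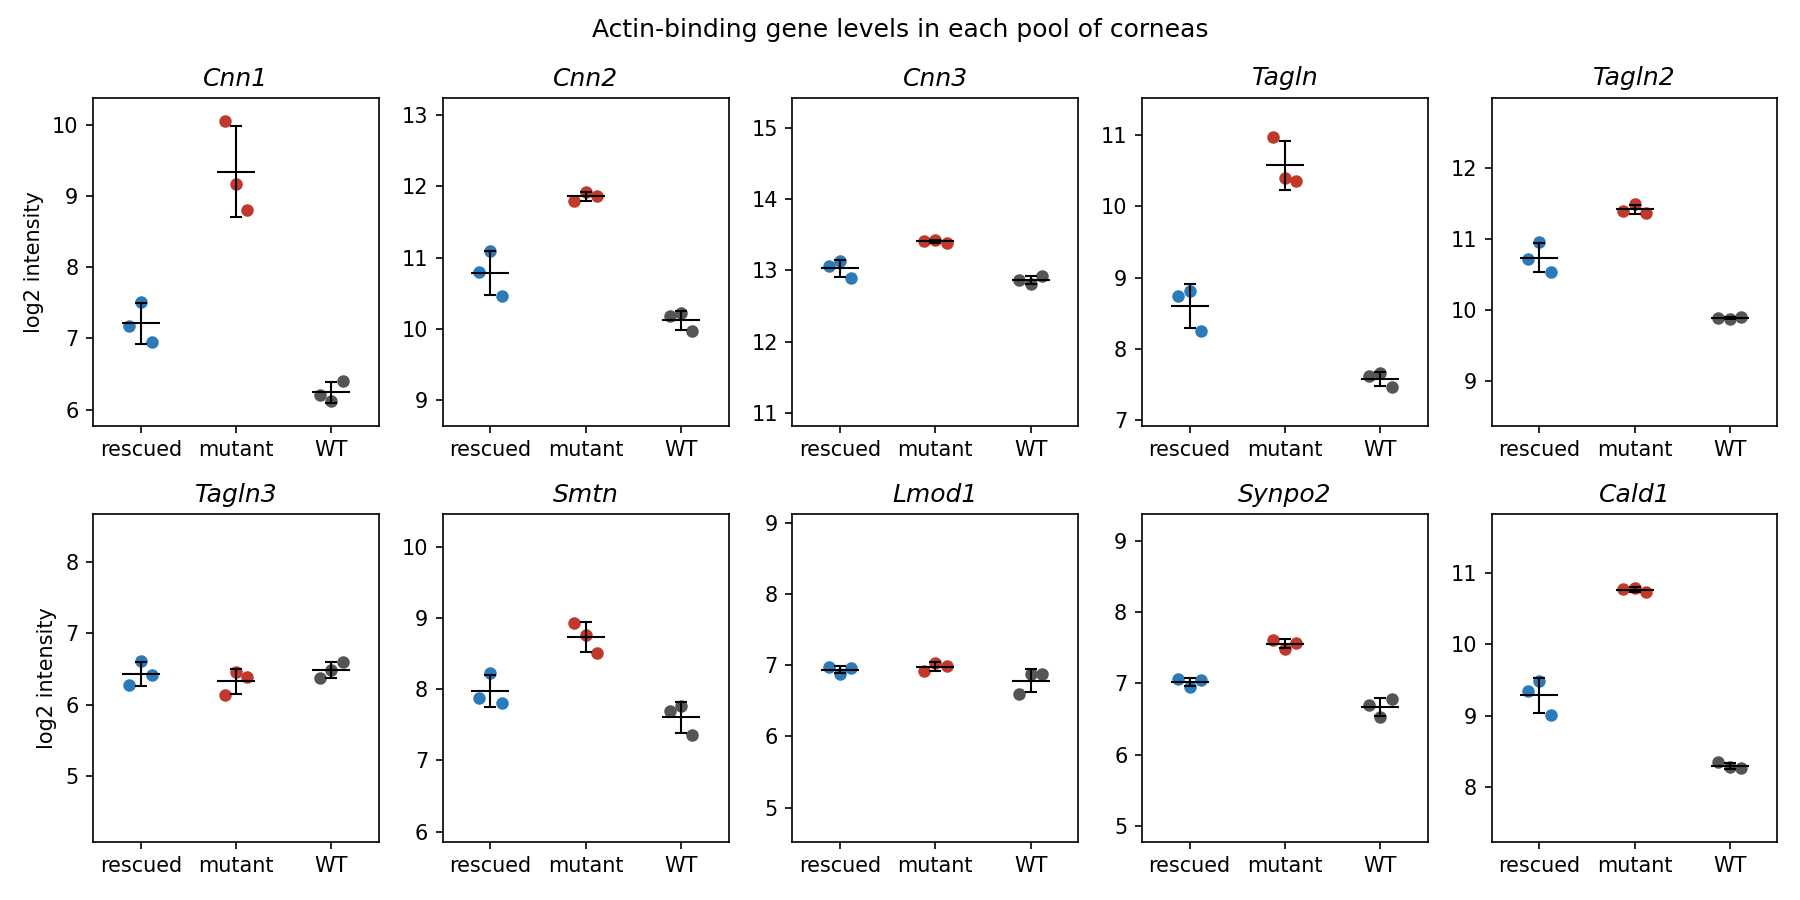
Log2 intensity of the 10 actin-binding genes in each pool, by group (points: 3 pools a group, bars: mean and SD). Each panel spans the same number of log2 units, so that steps can be compared across genes, and mutant pools lie above rescued and WT pools in all panels except those of Tagln3 and Lmod1.

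Paralogs were set side by side in the size of the mutant change, by taking the difference of both genes on each array for the 6 pairs within the calponins and within the transgelins. No pair could pass a threshold of 0.05, because the exact two-sided permutation test of 3 against 3 pools gives no p below 0.1, which was the value for each of the 6 pairs (adjusted p = 0.1 over the pairs). As a description, the measured log2 difference of Cnn1 was 1.36 (SE 0.35) above that of Cnn2 and 2.56 (SE 0.31) above that of Cnn3. The WT level of Cnn1 lay below 6.77, so its own change is a lower bound, which limits both values. Cnn3 lay near the top of the table, and whether this narrowed its change was not tested. The measured difference of Cnn2 was 1.20 (SE 0.13) above that of Cnn3, and that of Tagln 1.47 (SE 0.19) above that of Tagln2. No value is given for Tagln3, which lay below 6.77 throughout.

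Rescued corneas were next set against mutant corneas, to ask what becomes of these levels when Srf is ablated in the epithelium. The same 8 genes were lower in rescued than in mutant corneas and none was higher, against 13.3% of all genes called in either direction, 6.46% called higher and 6.88% called lower. In all 8 the groups did not overlap, as in 17.1% of all genes. At an unadjusted p under 0.05 there were also 8 lower, against 14.4% of all genes. The median log2 difference of the 10 genes was −0.72, and that of all genes −0.002. Cnn1, Tagln, Cald1 and Cnn2 were lower by more than 2-fold, as were 0.658% of all genes.

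Cnn1 had log2 intensities of 7.17, 7.52 and 6.95 in rescued pools, against 10.05, 9.17 and 8.80 in mutant pools. The groups were separated by more than 1 log2 unit, with a log2 difference of −2.13 (SE 0.27), or 4.38-fold lower in rescued corneas (adjusted p = 0.00097, limma). Tagln had 8.73, 8.81 and 8.24 in rescued pools, all below the mutant pools at 10.97, 10.40 and 10.35, 3.94-fold down (log2 difference −1.98, SE 0.18, adjusted p = 0.000184, limma). Cald1 had 9.35, 9.49 and 9.01 in rescued pools and 10.78, 10.79 and 10.74 in mutant pools. The log2 difference was −1.49 (SE 0.11), or 2.8-fold lower in rescued corneas (adjusted p = 4.52e-05, limma). For these 3 genes the rescued pools scattered around a level between those of mutant and WT.

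Cnn2 had 10.80, 11.09 and 10.47 in rescued pools, against 11.80, 11.92 and 11.86 in mutant pools, and was 2.11-fold lower (adjusted p = 0.00101, limma). Smtn had 7.88, 8.22 and 7.81 in rescued pools, against 8.93, 8.76 and 8.51 in mutant pools, and was 1.7-fold lower (adjusted p = 0.00885, limma). Tagln2 had 10.72, 10.95 and 10.53, against 11.39, 11.48 and 11.37 in mutant pools, and was 1.6-fold lower (adjusted p = 0.00158, limma). Rescued pools of all 3 genes lay below every mutant pool, with steps smaller than those of Cnn1 and Tagln. Synpo2, at 7.05, 6.95 and 7.05 in rescued pools, was 1.45-fold lower (adjusted p = 0.00172, limma), and Cnn3, at 13.06, 13.12 and 12.90, was 1.3-fold lower (adjusted p = 0.00744, limma). Lmod1 (log2 difference −0.04, adjusted p = 0.815) and Tagln3 (0.11, adjusted p = 0.613) did not pass the test in limma. Between paralogs, the rescued minus mutant value of Cnn1 less that of Cnn2 was −1.05 (SE 0.35) on the log2 scale, and that of Tagln less that of Tagln2 was −1.30 (SE 0.19). The exact two-sided permutation p was 0.1 for both, the smallest possible here, so neither could pass the threshold. This comparison and the first use the same mutant pools.

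The comparison of rescued with WT corneas asked how much of the difference remained. Of the 10 genes, 6 were higher in rescued than in WT corneas and none was lower, against 13.7% of all genes called in either direction, 6.28% called higher and 7.43% called lower. In 8 genes all rescued pools lay above all WT pools, as in 13.4% of all genes. At an unadjusted p under 0.05, 8 were higher, against 11.8% of all genes. Only Tagln passed a 2-fold minimum, against 1.2% of all genes. Tagln was 2.02-fold higher, with 8.73, 8.81 and 8.24 in rescued pools and 7.61, 7.66 and 7.47 in WT pools (adjusted p = 0.00637, limma). Cald1 was 1.98-fold higher (adjusted p = 0.000459, limma), Tagln2 1.8-fold (adjusted p = 0.000584, limma) and Cnn2 1.58-fold (adjusted p = 0.0128, limma). Synpo2 was at least 1.27-fold higher (adjusted p = 0.0168, limma) and Cnn1 at least 1.96-fold (adjusted p = 0.0447, limma). Cnn3 and Smtn had log2 differences of 0.16 (SE 0.07, adjusted p = 0.183) and 0.37 (SE 0.15, adjusted p = 0.149) in limma. For Smtn the rescued pools lay above the WT pools, whereas for Cnn3 the groups overlapped. Lmod1 (0.16, adjusted p = 0.277) and Tagln3 (−0.05, adjusted p = 0.823) did not pass either. Here the measured difference of Cnn1 less that of Cnn2 was 0.31 (SE 0.35), and that of Tagln less that of Tagln2 was 0.17 (SE 0.19), with overlapping pools (exact two-sided permutation p = 0.3 for both).

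The Cnn1 call in that comparison was lost in 6 of 9 fits that left out 1 pool. The adjusted p was 0.102 and 0.153 without rescued replicates 1 and 2, 0.0574 without mutant replicate 2, and 0.114, 0.125 and 0.0781 without WT replicates 1, 2 and 3 (limma). It was also lost with the Y-linked covariate (adjusted p = 0.0674). The Synpo2 call was lost without rescued replicate 1 (adjusted p = 0.0599) or WT replicate 2 (adjusted p = 0.055). The Cnn1 difference kept its direction throughout these fits, between 0.82 and 1.10 on the log2 scale.

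**Figure D2:**
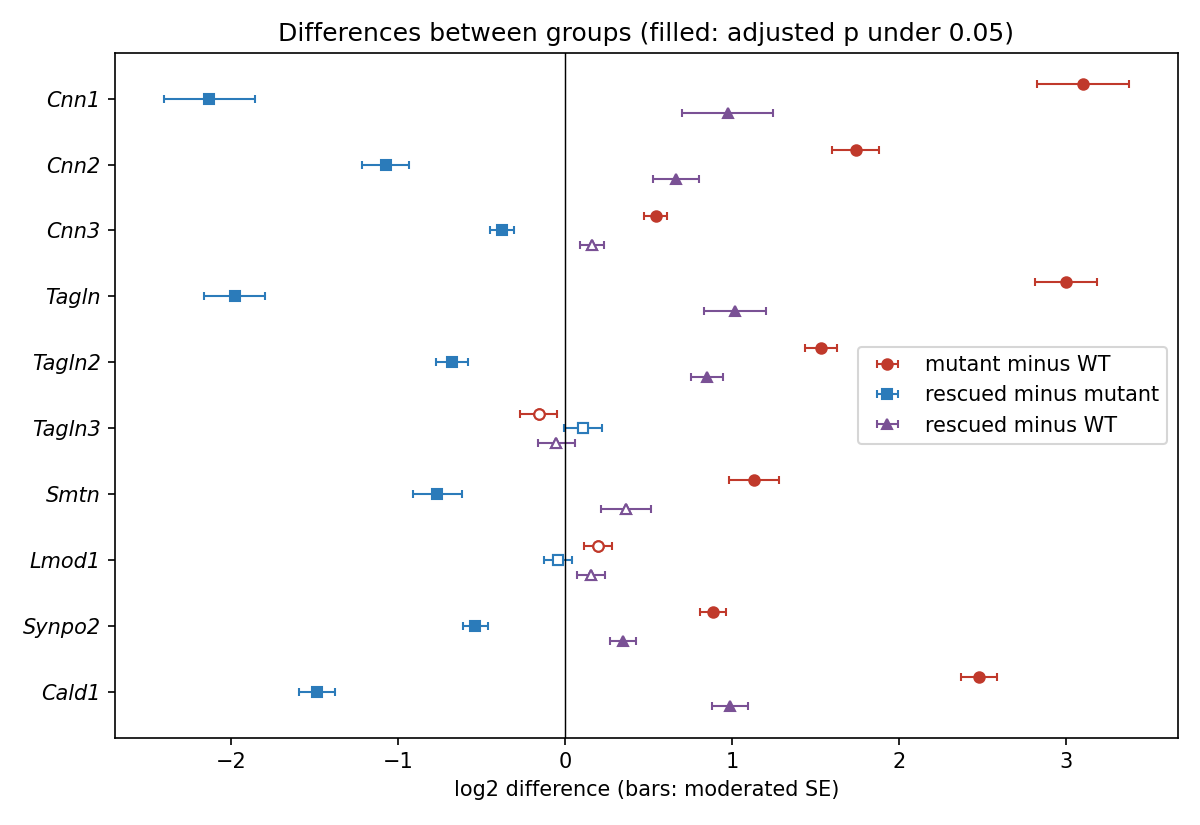
Log2 differences of the 10 genes between groups with moderated SE; filled symbols passed an adjusted p of 0.05. For each of the 8 genes that rose in the mutant, the rescued minus mutant difference lies below 0 and is smaller in size, and the rescued minus WT difference lies above 0.

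The share of the mutant change that was reversed is the drop between mutant and rescued means as a percentage of the rise between mutant and WT means, taken on log2 values, with a Fieller 95% interval from the fit. Among the 8 genes that rose it ran from 44.5% to 70.2%, with a median of 64.0%. The median was 52.5% for all 3355 genes called higher in the mutant (quartiles 35.3% and 71.0%) and 46.0% for the 674 that were at least 2-fold higher (quartiles 32.3% and 58.3%). Both differences share the mutant pools, so these shares are descriptions without a test.

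Among the calponins, Cnn3 had a share of 70.2% (interval 44.5% to 99.7%), Cnn1 68.7% (51.5% to 87.4%) and Cnn2 61.9% (46.3% to 78.3%). The 3 intervals overlap widely, with measured mutant minus WT log2 differences of 3.10 for Cnn1, 1.74 for Cnn2 and 0.54 for Cnn3. Smtn had a share of 67.6% (41.8% to 96.8%), Synpo2 60.9% (43.9% to 78.8%) and Cald1 60.1% (51.6% to 68.7%). For Cnn1 and Synpo2, whose WT level lay below the median of all rows, the share is an upper value.

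The transgelins differed more. Tagln had a share of 66.1% (54.1% to 78.7%) and Tagln2 of 44.5% (32.0% to 56.7%), the lowest of the 8. Single rescued pools, set against the mutant and WT means, gave Tagln 61.5%, 58.9% and 77.9% and Tagln2 45.3%, 30.6% and 57.6%. The share of Tagln2 lay below that of Tagln in each rescued pool; this difference was not tested further, and the intervals overlap. On the linear scale the shares rose to 85.3% for Tagln and 56.9% for Tagln2, and to 88.0% for Cnn1.

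**Figure D3:**
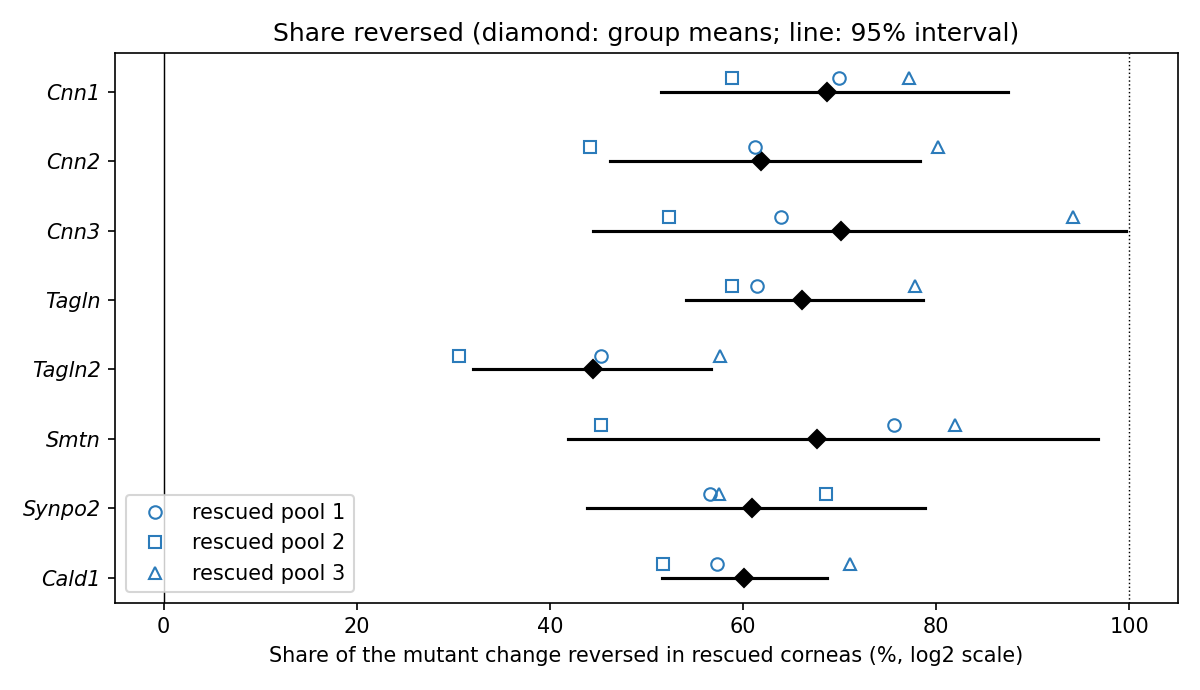
Share of the mutant change reversed in rescued corneas, in percent on the log2 scale, for the 8 genes that rose in the mutant (diamonds: group means, lines: Fieller 95% interval, open symbols: single rescued pools). All intervals lie between 0 and 100, Tagln2 has the lowest share, and pool 3 has the highest share in 7 genes.

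The rescued pools differed among themselves in one direction. Replicate 3 was the lowest rescued pool for 7 of the 8 genes and replicate 2 the highest for 7, with Synpo2 the exception in both. How many of all genes share this order was not counted, so it cannot be called particular to these genes. Srf had log2 intensities of 9.14, 9.45 and 8.45 in rescued replicates 1, 2 and 3, so that its order was that of those 7 genes. The summed linear intensity of 13 pericyte and vascular smooth muscle markers was 4017, 4819 and 4292 in the same pools and that of 8 blood endothelial markers 1830, 2383 and 2079, with replicate 2 highest in both. The sums of 7 macrophage markers (3239, 3474 and 2796), of 4 platelet markers (6202, 9379 and 3581) and of 6 corneal epithelial markers (50751, 52021 and 50612) had the same order as Srf and the 7 genes. Ppbp (log2 12.50, 13.13 and 11.64) made up most of the platelet sum, whereas Gp9 and Itga2b stayed between 6.95 and 7.50. Krt12 (13.92, 13.91 and 13.94), Pax6 (12.10, 12.11 and 12.18) and Aldh3a1 (13.79, 13.81 and 13.86) were highest in replicate 3, and the other epithelial markers in replicate 2. Other sums had other orders. Those of keratocyte (35828, 31364 and 31302) and lens markers (2394, 1728 and 1693) were highest in replicate 1. Activated fibroblast markers (14705, 15075 and 14726) were highest in replicate 2 and lowest in replicate 1. Skeletal muscle (859, 889 and 898) and neuronal markers (651, 653 and 662) were highest in replicate 3. The part of any of these markers in the spread was not tested.

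The same pathway was followed in 35 other contractile SRF targets and in the cofactors of SRF. Of the 35, 31 were higher and 1 was lower in mutant corneas, and 2 were higher and 29 were lower in rescued than in mutant corneas, with median log2 differences of 1.10 and −0.84. Beside these counts and those of the lists below, 15.1% of all genes were called higher and 16.5% lower in mutant against WT corneas. In rescued against mutant corneas 6.46% were called higher and 6.88% lower. Acta1 and Acta2, the genes for skeletal and smooth muscle alpha-actin, and Actg2, for smooth muscle gamma-actin, had mutant minus WT differences of 5.82, 4.91 and 3.39, and Fhl2, for a LIM-domain cofactor, of 3.42. Their shares reversed were 28.5% for Acta1 (20.4% to 36.3%), 17.1% for Acta2 (8.82% to 24.9%), 41.7% for Actg2 and 53.9% for Fhl2. The intervals of Acta1 and Acta2 lie below those of Cnn1, Tagln and Cald1; Acta2 averaged 13.84 in the mutant, close to the highest value in the table. Over the 31 targets that rose, the share ran from 17.1% to 114%, with a median of 58.6%: 7 lay below the range of the 8 actin binders, 12 within it and 12 above.

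Of 7 genes for SRF and its cofactors, 4 were higher in the mutant: Srf (1.55), Elk3 (0.87), Mrtfb (0.40) and Mrtfa (0.28) as log2 differences. Srf and Mrtfb were lower in rescued than in mutant corneas. Of 10 relatives of the actin binders (tropomodulins, further leiomodins, smoothelin-like and synaptopodin genes), only Synpo, for synaptopodin, was called higher in the mutant (log2 difference 0.40, adjusted p = 0.0123) and lower in rescued than in mutant corneas (−0.36, adjusted p = 0.0462, limma). Tmod3, for a tropomodulin that caps filament ends, rose in rescued against mutant corneas (0.21, adjusted p = 0.0399, limma). Lmod2, Lmod3 and Synpo2l lay below 6.77 on all arrays.

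Smooth muscle and pericytes also express several of these actin binders. The mutant had 6 of 13 markers of pericytes and vascular smooth muscle higher than WT and 1, Notch3, lower (log2 difference −0.53), and rescued corneas had 3 lower than the mutant. Myh11 and Des also stand among the 35 SRF targets. Myh11 was among the 6 and among the 3, with log2 differences of 0.44 and −0.35 and a share reversed of 80.9% (47.3% to 125%). The summed linear intensity of the 13 markers was 4017 to 4819 in rescued, 5509 to 6948 in mutant and 3289 to 3645 in WT pools, without overlap between groups. Such a sum follows mostly the genes with large steps in intensity, here Rgs5 (mean 5.91 in WT and 10.71 in mutant corneas) and Mcam (7.09 and 10.17). It does not show a rise of all 13, whose median mutant minus WT log2 difference was 0.21. Rgs5, a pericyte regulator of G-protein signalling, had mutant minus WT and rescued minus mutant log2 differences of 4.80 and −0.90, the first a lower bound because its WT level lay below 6.77, and Mcam, an adhesion molecule of pericytes and endothelium, of 3.08 and −1.88. Abcc9 and Ndufa4l2 had mutant minus WT differences of 0.97 and 0.93. Higd1b, Vtn and Des lay below 6.77 on all arrays, and Pdgfrb, a defining pericyte receptor, had a mutant minus WT difference of −0.05 (adjusted p = 0.81, limma). The share reversed was 18.8% for Rgs5 (8.58% to 28.3%) and 61.1% for Mcam (50.6% to 72.0%). Of 8 blood endothelial markers, 7 were higher in the mutant and Kdr, for a VEGF receptor and named after its value was seen, was lower (log2 difference −0.59, adjusted p = 0.0133, limma), and 5 were lower in rescued than in mutant corneas. The share of Cdh5, for VE-cadherin, was 23.2% (13.4% to 32.4%). The shares of Rgs5 and Cdh5 are upper values, since both lay below 6.77 in WT.

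Mutant replicate 1, the highest mutant pool for Cnn1, Tagln, Smtn and Synpo2, also had the highest pericyte sum (6948, against 5509 and 6122 in mutant replicates 2 and 3) and the highest endothelial sum (3678, against 2545 and 3419). It was also the highest mutant pool for markers of macrophages (4142, against 3293 and 3456), activated fibroblasts (17493, against 14621 and 15300), keratocytes (32277, against 26460 and 29872) and lens (5125, against 1920 and 2250). Cnn2, Cnn3, Tagln2 and Cald1 were instead highest in mutant replicate 2. So were the sums of the 35 SRF targets (119805, 121023 and 116812 in replicates 1, 2 and 3) and of platelet markers (12694, 13972 and 11790). Corneal epithelial markers were lowest in replicate 1 (45660, 47064 and 46140). Sums of skeletal muscle (824, 875 and 890) and neuronal markers (683, 649 and 700) were highest in replicate 3. Without mutant replicate 1 the mutant minus WT difference was 2.74 for Cnn1 and 2.80 for Tagln. The part of Srf or of any of these cell types in the levels of the actin binders was not tested.

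Markers of the remaining cell types moved as follows between mutant and WT corneas, where 15.1% of all genes were called higher and 16.5% lower. All 7 macrophage markers were higher, with summed linear intensities of 3293 to 4142 in mutant and 1619 to 1851 in WT pools. Of 8 activated fibroblast markers 3 were higher, led by Tnc (log2 difference 3.66, a lower bound). The sums of all 8 were 17493, 14621 and 15300 in mutant and 14519, 14781 and 8823 in WT replicates 1, 2 and 3. These groups overlapped, and only WT replicate 3 lay far below the mutant pools. The sum does not show a rise of all 8. Of 6 corneal epithelial markers 3 were higher and 3 lower, of 7 keratocyte markers 1 was higher and 4 lower, of 6 lens markers 4 were lower, of 7 skeletal muscle markers 1 was lower, and of 4 platelet markers 2 were higher. Their part in the levels of the actin binders was not tested.

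**Figure D4:**
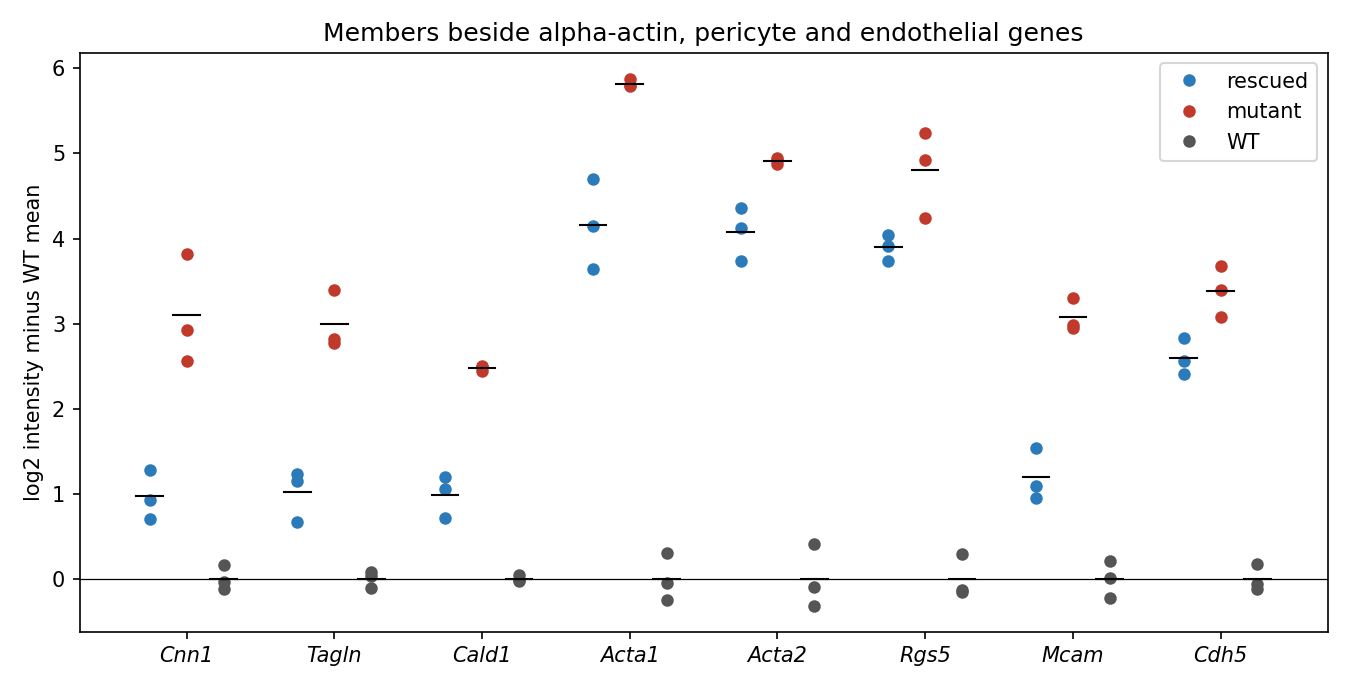
Log2 intensity of Cnn1, Tagln and Cald1 beside alpha-actin (Acta1, Acta2), pericyte (Rgs5, Mcam) and endothelial (Cdh5) genes, each minus its WT mean (points: pools, bars: means). Rescued pools of the 3 actin binders lie near 1, as do those of Mcam (mean 1.20). Those of Cdh5 average 2.60, and those of Acta1, Acta2 and Rgs5 stay above 3. Mutant means also lie higher for Acta1 (5.82), Acta2 (4.91) and Rgs5 (4.80) than for Cnn1 (3.10), Tagln (3.00) and Cald1 (2.47).

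For the 6 actin binders that were called and at least 2-fold higher in the mutant, the genes with the most similar profile were ranked by Pearson correlation over the 9 arrays, which fall into 3 groups. Cnn1 was closest to Nuak1 (r = 0.991), Ereg (0.987) and Itpk1 (0.986). Tagln was closest to Klf7 (0.996), Pik3c2a (0.995) and Pcdh7 (0.995), and Tagln2 to Iffo2 (0.998), Actn1 (0.998) and Ptgs2 (0.997). Cnn2 was closest to Rras (0.996), Gjb2 (0.995) and P4ha2 (0.995), and Cald1 to Tslp, Rras and Sh3kbp1 (all 0.997). Smtn was closest to Mical2 (0.986), Fbxo30 (0.983) and Trim7 (0.982). Rras, for a small GTPase, stood in the lists of Cnn2 and Cald1. The values describe likeness over these arrays only.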

How the data were processed

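RNA was extracted with Trizol, and the Ambion WT Expression and Affymetrix WT Terminal Labeling kits gave biotin-labelled targets, per the labels' protocols. The deposited values are log2 intensities, which the authors normalised in a way the labels do not state. Base 2 was inferred from their range (2.14 to 14.3). The number of arrays limits the precision. limma 3.58.1 (R 4.3.3) was fitted over all 9 arrays and 22180 genes without an intensity filter (lmFit, contrasts, eBayes; two-sided; Benjamini-Hochberg adjustment, threshold 0.05), and tested on simulated data. The replicates were separate pools, per the labels. The genes, the other lists and the tests were chosen with earlier results of these data known, so the counts are no independent evidence. Genes named from lists were among the 4 of each list with the largest absolute mutant minus WT difference. The 10 actin binders, Dstn, Srf and the 3 most similar genes were also named, and Krt12, Kdr, Notch3, Pdgfrb, Myh11, Tmod3 and markers below the table's median were chosen after their values were seen. Listed markers without a matching row were not analysed here. Alternatives were quantile normalisation, median centring, a filter at the table's median, averaging the rows of each gene, trend and robust options, 6 arrays only, a replicate block, stricter thresholds and leaving out each array. Figures were drawn with matplotlib 3.10.9 (Python 3.11.15).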

Additional observations from a re-analysis of the deposited data

How the results depend on the processing

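Of 22 differences of the actin binders called in the 3 comparisons, 20 were called under every alternative fit and without any single pool; the exceptions were Cnn1 and Synpo2 between rescued and WT corneas. Counts of called genes were 8, 8 and 6 and changed with thresholds: at an adjusted p under 0.01, 3 were called between rescued and WT corneas, and with a 2-fold minimum 4 were called between rescued and mutant and 1 between rescued and WT corneas. Leaving out single pools gave 8 and 8 called genes in the first 2 comparisons, 4 to 6 in the third, and a median share reversed of 59.2% to 70.2%. The Tagln3 difference between rescued and WT corneas ranged from −0.14 to 0.025 over these fits and turned positive without rescued replicate 1 and without WT replicate 3 (0.0036), within its error. Same-numbered pools showed no shared deviation (correlations of deviations −0.02 to 0.06, against −0.095 to 0.08 for pools of different number). This cannot show whether the pools were paired in the experiment. With the replicate block, 8, 8 and 5 genes were called, and the Cnn1 call between rescued and WT corneas was lost (adjusted p = 0.0584), as with trend and robust options (adjusted p = 0.0644); the cause was not tested. The share reversed moved beyond the spread of the pools only on the linear scale, for Cnn1 (88.0%), Tagln (85.3%), Synpo2 (68.2%) and Cald1 (78.0%).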
